A study of Mus musculus with 12 samples.

Results

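miR-421 was measured by quantitative PCR in whole lung of 12 C57BL/6 mice, 3 in each of 4 groups. Its assays were found by name: the panel of 762 assays holds 2 called miR-421, one named for the human sequence (002700B) and one for the rat sequence (001343A). The human-named assay gave a value in all 12 mice and the rat-named assay in 0, so every level below comes from the human-named assay. The irradiated flaxseed group (mice 15, 17 and 18) ate 10% flaxseed for 21 days and received 13.5 Gy, and the unirradiated flaxseed group (mice 11, 12 and 13) ate the same diet without radiation. The irradiated control group (mice 7, 8 and 9) had the control diet and 13.5 Gy, and the unirradiated control group (mice 2, 4 and 5) had the control diet and no radiation. Lungs were taken 48 h after the exposure. No genetic change is named for any group. miR-421 was chosen by its level differences between these groups, measured in the same mice, so its levels and differences are a description and carry no test.

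MicroRNAs are short RNAs, cut from a hairpin, that lower the output of messenger RNAs to which they pair. In human cells miR-421 was reported to repress ATM, the kinase that starts the cellular answer to breaks in both DNA strands, and radiation makes such breaks. Neither ATM messenger RNA nor ATM protein was measured here. The microRNA named miR-421 in human is the 3′ arm of its hairpin, mmu-miR-421-3p in mouse.

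In mouse, the Mir421 hairpin lies on the minus strand at chrX:103572921-103572996 (GRCm38.p6). The position falls within Ftx (chrX:103560910-103623754), a long noncoding RNA gene of the X-inactivation region, and 63 bases from the hairpin of Mir374b (chrX:103573060-103573154), which is also within Ftx. The RefSeq sequences are shown 5′ to 3′ to place miR-421 beside its neighbour. In the hairpin the capitals mark mmu-miR-421-5p, the 5′ arm, at bases 11 to 31, and not the 3′ arm that is called miR-421 in human. In mmu-miR-374b-5p they mark the seed, bases 2 to 8.
Mir421 hairpin: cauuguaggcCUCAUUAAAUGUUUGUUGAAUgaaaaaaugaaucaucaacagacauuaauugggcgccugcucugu
mmu-miR-374b-5p: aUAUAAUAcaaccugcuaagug

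The deposited values are relative threshold cycles (Crt), the cycle at which a reaction crosses a threshold, so that fewer cycles mean more RNA. The miR-421 Crt was 22.62, 21.58 and 21.97 in irradiated flaxseed mice 15, 17 and 18, and 22.98, 22.86 and 23.83 in unirradiated flaxseed mice 11, 12 and 13. It was 23.67, 23.67 and 23.28 in irradiated control mice 7, 8 and 9, and 22.60, 22.94 and 22.89 in unirradiated control mice 2, 4 and 5. These values are well inside the limit of 28 cycles used for detection. As deposited, the irradiated control mice all crossed later than the unirradiated control mice and the irradiated flaxseed mice, and mouse 13 crossed latest of all.

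Mice also differ in total signal. The mean Crt of the 260 microRNA assays detected in all 12 mice was 19.69 ± 0.27 in irradiated flaxseed mice, 20.56 ± 0.58 in unirradiated flaxseed mice, 19.75 ± 0.01 in irradiated control mice and 19.95 ± 0.13 in unirradiated control mice (SD, n = 3 each). Mouse 13 stood at 21.20, so its late crossing for miR-421 went with late crossing of the other assays. Fewer microRNA assays were also detected in unirradiated flaxseed mice, with 291, 297 and 281 in mice 11, 12 and 13. The mice of the other groups had 307 to 312. In what follows a level is this mean Crt minus the assay's own Crt in the same mouse, on a log2 scale on which a higher value means more RNA and 1 unit is a 2-fold change if template doubles in each cycle.

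On that scale miR-421 was lowest in the irradiated control mice. Whole lung was used, so fewer cells of a type and less RNA per cell cannot be told apart. Its level was -2.64, -2.14 and -2.31 in irradiated flaxseed mice 15, 17 and 18, and -2.56, -2.79 and -2.63 in unirradiated flaxseed mice 11, 12 and 13. It was -3.92, -3.93 and -3.52 in irradiated control mice 7, 8 and 9, and -2.69, -2.84 and -3.04 in unirradiated control mice 2, 4 and 5. The 3 irradiated control mice were below all 9 other mice, with a gap of 0.47 between the highest of them and the lowest of the others. Among the 260 assays detected in all mice, 6 (2.31%) had the irradiated control mice below the other 9 and 2 (0.769%) had them above. The 6 were miR-421, miR-30a-3p, miR-704, miR-200c by assay 000505B, miR-191 and miR-339-5p.

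**Figure D1:**
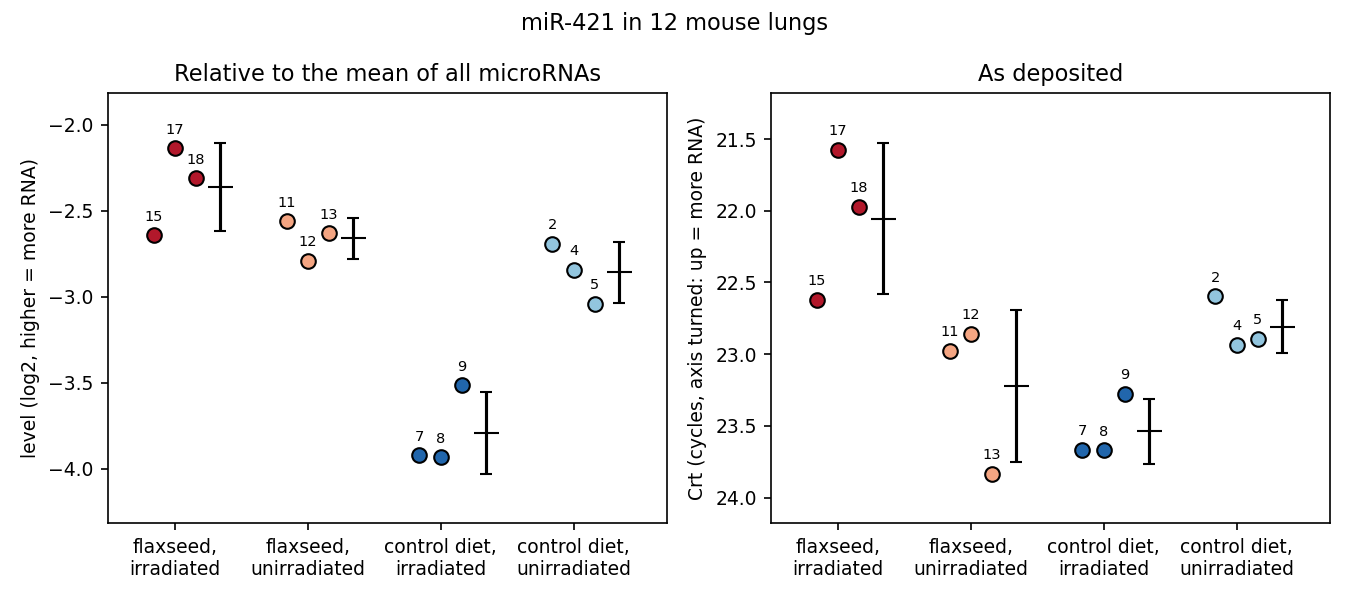
miR-421 by mouse in the 4 groups, as the level relative to the mean of 260 microRNAs (left, log2) and as the deposited Crt (right, cycles, axis turned so that up is more RNA). Points are mice with their numbers, bars the group mean ± SD (n = 3). On the left the irradiated control mice, at -3.93 to -3.52, lie below the other 9 mice, and on the right mouse 13 lies lower still.

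The order of the group means was irradiated flaxseed (-2.36 ± 0.26), unirradiated flaxseed (-2.66 ± 0.12), unirradiated control (-2.86 ± 0.18) and irradiated control (-3.79 ± 0.24; SD, n = 3 each). The first and the second of these overlapped, since mouse 15 was level with the unirradiated flaxseed mice. The second and the third overlapped as well, since mouse 2 was higher than mouse 12. Unirradiated and irradiated control mice did not overlap. The pooled SD within groups was 0.20 for miR-421, against a median of 0.37 over the 296 tested microRNA assays, of which 13.5% had a smaller one.

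Flaxseed was set against control diet in irradiated mice first. miR-421 averaged -2.36 in irradiated flaxseed mice and -3.79 in irradiated control mice, a difference of 1.43 ± 0.20 (SE, limma), or 2.69-fold. All 3 irradiated flaxseed mice were above all 3 irradiated control mice, which was so for 43 of the 260 assays detected in all mice (16.5%). The difference was the 12th highest of the 296, whose median was 0.01. It lay between 1.31 and 1.61 under all 24 alternatives tried. Some of these, such as leaving out a mouse outside the 2 compared groups, could barely move it.

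In unirradiated mice the diets differed less. miR-421 averaged -2.66 in unirradiated flaxseed mice and -2.86 in unirradiated control mice, a difference of 0.20 ± 0.20 (SE), against a median of 0.22 over the 296 assays. The sign depended on the scaling: the difference was 0.44 when scaled to the median assay and -0.41 with no normalization. Of 24 alternatives 6 put it below 0, and all 6 were other ways of scaling. Among the other ways of scaling, only the median assay kept it above 0. The rest of the 24 alternatives kept the main scaling. A direction for miR-421 in this comparison is therefore not given.

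Radiation was set against none on each diet. On the control diet miR-421 averaged -3.79 in irradiated mice and -2.86 in unirradiated mice, a difference of -0.93 ± 0.20 (SE) or 1.91-fold lower, with 14 of 260 assays (5.38%) having all irradiated control mice below all unirradiated control mice. It was the 18th lowest of 296 differences, and the 24 alternatives ran from -1.20 to -0.73. On the flaxseed diet it averaged -2.36 in irradiated mice and -2.66 in unirradiated mice, a difference of 0.30 ± 0.20, against a median of -0.25 over all assays. This value was positive under all 24 alternatives, some of which could barely move it. Yet its size moved with the scaling, to 1.17 with no normalization, 0.79 with quantile normalization and 0.74 with the authors' normalized values. Averaged over the other factor, flaxseed minus control diet was 0.81 ± 0.14 and radiation minus none was -0.32 ± 0.14, and both averages hide the unlike values above.

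**Figure D2:**
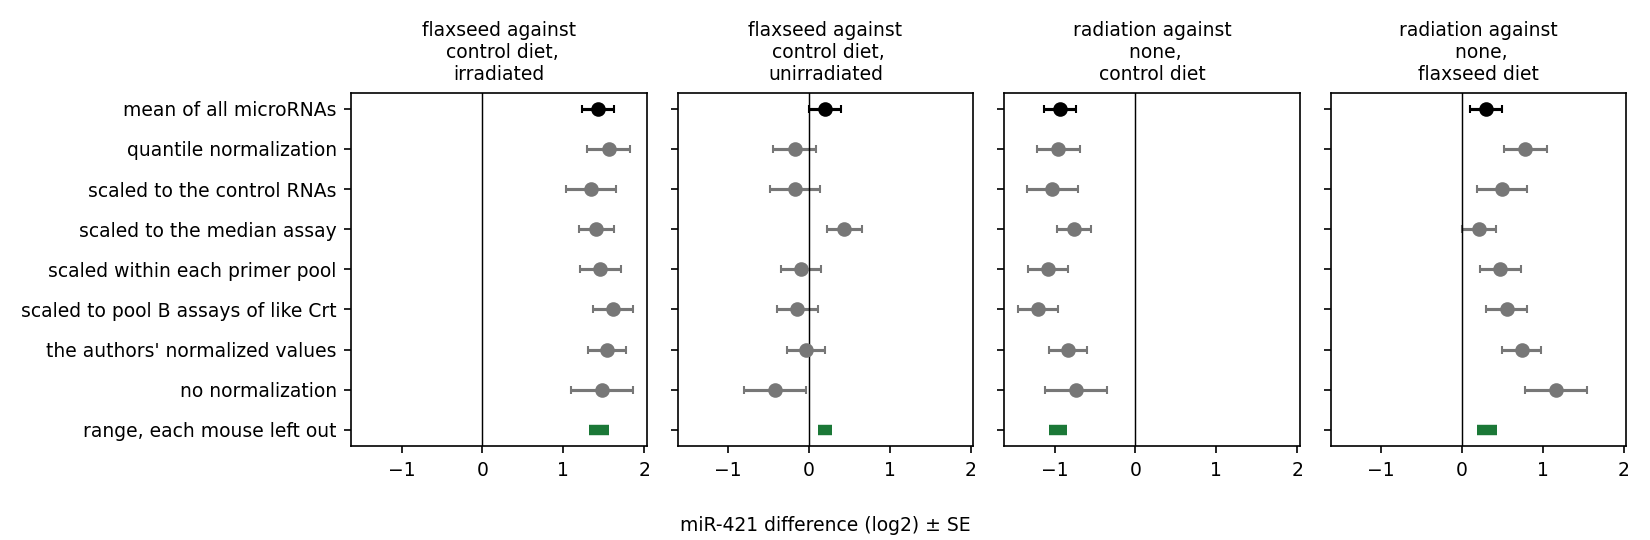
miR-421 differences (log2 ± SE, limma) in 4 comparisons of 3 mice with 3, each under 8 ways of scaling, with the range of the values when each mouse is left out (green bar). In irradiated mice the flaxseed difference stays between 1.31 and 1.61, while in unirradiated mice it falls on both sides of 0.

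The effect of radiation on the flaxseed diet minus that on the control diet was 1.23 ± 0.28 (SE) for miR-421, with a median of -0.26 over all assays. Relative to the unirradiated mean of the same diet, irradiated flaxseed mice 15, 17 and 18 stood at 0.02, 0.52 and 0.35, and irradiated control mice 7, 8 and 9 at -1.06, -1.07 and -0.66. The value ran from 0.97 to 1.90 over 24 alternatives. A recording difference runs the same way as this contrast. A 4th decimal was recorded for 46% to 49.7% of microRNA Crt values of irradiated flaxseed mice and 40% to 42.6% of those of unirradiated control mice, but for 0% in unirradiated flaxseed and irradiated control mice. The miR-421 value carried one in mice 17 and 18. Whether this recording difference touched miR-421 was not tested, and it cannot be told apart from the interaction of diet with radiation. Each single comparison of diet or of radiation above also sets a group with such decimals against a group without them. There, too, the recording difference cannot be told apart from diet or radiation.

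miR-421 is in primer pool B, which was reverse transcribed apart from pool A. The mean Crt of pool B minus that of pool A was 2.37 to 2.75 in irradiated flaxseed mice, 1.78 to 2.56 in unirradiated flaxseed mice (1.78 in mouse 11), 2.38 to 2.69 in irradiated control mice and 2.69 to 2.81 in unirradiated control mice. Scaled within its own pool, miR-421 still had all irradiated control mice below the other 9, with a gap of 0.39. Scaled to 22 other pool B assays with a mean Crt within 1 cycle of its own, the gap was 0.46, and with the authors' normalized values 0.47. Scaled to the control RNAs the gap shrank to 0.01, and with no normalization 8 of the 9 other mice were above all irradiated control mice.

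Of 2 other assays of the Ftx locus on the panel, miR-374# gave no value and miR-374-5p, which RefSeq's synonyms place at Mir374b, gave values in 10 mice. The miR-374-5p level was 1.58, 1.62 and 1.43 in irradiated flaxseed mice 15, 17 and 18, and 1.43 and 0.08 in unirradiated flaxseed mice 12 and 13. It was 1.96 and 0.53 in irradiated control mice 7 and 9, and 2.21, 0.33 and -0.35 in unirradiated control mice 2, 4 and 5. The reactions of mice 11 and 8 gave no value and were left out of its fit. The groups overlapped, and the differences were 0.30 ± 0.76 for flaxseed against control diet in irradiated mice (limma adjusted p = 0.85) and 0.52 ± 0.76 for radiation against none on the control diet (adjusted p = 0.913). These standard errors are too wide to say whether the neighbour moved with miR-421.

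Other microRNAs reported in human cells to repress ATM were described next, with 7 assays, all tested: miR-100, miR-101, miR-101b, miR-18a, miR-26a, miR-27a and miR-181a. With limma, 0 of the 7 were called at an adjusted p under 0.05 over all assays in any of the 4 comparisons of diet or radiation. Of all 296 assays, 5.07% were called for flaxseed in irradiated mice, 12.2% for flaxseed in unirradiated mice, 0% for radiation on the control diet and 14.5% for radiation on the flaxseed diet, so a count of 0 among 7 is near the background. At an unadjusted p under 0.05 there were 0 of 7 (64 of 296 over all assays) for flaxseed in irradiated mice and 1 (86 of 296) for flaxseed in unirradiated mice. For radiation there were 0 (30 of 296) on the control diet and 4 (96 of 296) on the flaxseed diet. In irradiated mice their flaxseed differences ran from -1.17 to 0.21 with a median of -0.21, while on the control diet the radiation differences ran from -0.17 to 0.51 with a median of 0.10. miR-18a, of the miR-17 cluster, had the difference of -1.17 ± 0.71 (adjusted p = 0.3995). miR-100 stood at -0.11 ± 0.16 for flaxseed in irradiated mice and 0.03 ± 0.16 for radiation on the control diet. No flaxseed difference of the 7 in irradiated mice reached the 1.43 of miR-421, the 12th highest of 296. miR-421 was chosen by its level differences, so standing above the 7 carries no test.

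Of microRNAs tied to other genes of the DNA damage response, 16 were tested of 19 assays on the panel. In irradiated mice miR-34a, which p53 switches on, rose with flaxseed by 0.71 ± 0.17 (limma adjusted p = 0.0333). Its level was 3.18, 2.98 and 3.08 in irradiated flaxseed mice, against 2.30, 2.32 and 2.50 in irradiated control mice. It was the 1 called of the 24 listed assays, or 4.17%, against 5.07% of the 296 assays tested (2.36% higher and 2.7% lower). The call was lost in 12 of 28 alternatives, among them the fits without mouse 7, 8, 9, 15, 17 or 18, where the listed count was 0 (adjusted p 0.00178 to 0.467 over all alternatives).

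On the control diet, radiation against none called 0 of the 24 listed assays and 0 of 296 assays (0%) with limma. At an unadjusted p under 0.05 the counts were 0 and 30. miR-34a was at 0.06 ± 0.17 there, against -0.93 for miR-421.

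In unirradiated mice, 4 of the 24 listed assays (16.7%) were called for flaxseed, 1 higher and 3 lower, against 12.2% of all tested assays (5.07% higher and 7.09% lower). miR-34a rose by 1.28 ± 0.17 (limma adjusted p = 0.00453), and miR-24, reported to repress the histone H2AX, fell by 4.34 ± 1.12 (adjusted p = 0.028). miR-29c, of a family reported to raise p53, fell by 6.08 ± 1.30 (adjusted p = 0.0146) and miR-195, of the miR-16 family, fell by 3.25 ± 0.73 (adjusted p = 0.0165). Without mouse 4 the count was 2, and fitted on these groups alone it was 1. For such alternatives, here and below, the share called over all assays is not given. A changed count is therefore not a result about the listed microRNAs. miR-24 lost its call without mouse 2, 4 or 5 (adjusted p 0.0695, 0.0631 and 0.0746), and miR-195 without mouse 4 (0.0554). The miR-34a call was lost with no normalization (adjusted p = 0.36). Without mouse 11 the difference was -2.60 for miR-24 and -2.13 for miR-195, both still called. The same unirradiated flaxseed mice entered the comparison of radiation with none on that diet, where 4 of 24 (16.7%) rose, against 14.5% called of all tested (8.45% higher and 6.08% lower). These were miR-29c (7.16), miR-29b (4.83), miR-24 (4.67) and miR-195 (3.27), with 2 called without mouse 15, 1 without mouse 17, 1 without mouse 18 and 0 with these groups fitted by themselves. Without mouse 11 the differences were 2.94 for miR-24, 2.99 for miR-29b and 2.15 for miR-195, all still called.

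These large values rest on uneven mice. Each of them involves the unirradiated flaxseed mice, in which the fewest assays were detected. Whether this lower detection had a part in them was not tested. miR-24 was at 7.75, 8.69 and 8.03 in irradiated flaxseed mice 15, 17 and 18, and at 0.12, 4.75 and 5.57 in unirradiated flaxseed mice 11, 12 and 13. miR-29c was at 4.51, 6.03 and 5.93 in irradiated flaxseed mice 15, 17 and 18, and at -5.55, -0.47 and 1.00 in unirradiated flaxseed mice 11, 12 and 13. The SD among unirradiated flaxseed mice was 3.44 for miR-29c and 0.12 for miR-421. miR-29c was also the 1 listed assay called for the interaction of diet with radiation (7.55 ± 1.85, limma adjusted p = 0.0394), which is 4.17% of 24 against 8.45% of all tested (4.73% higher and 3.72% lower). The interaction count was 0 without mouse 2, 5, 7, 8, 9, 17 or 18, 2 without mouse 4 or 12, and 4 without mouse 11 or 13.

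**Figure D3:**
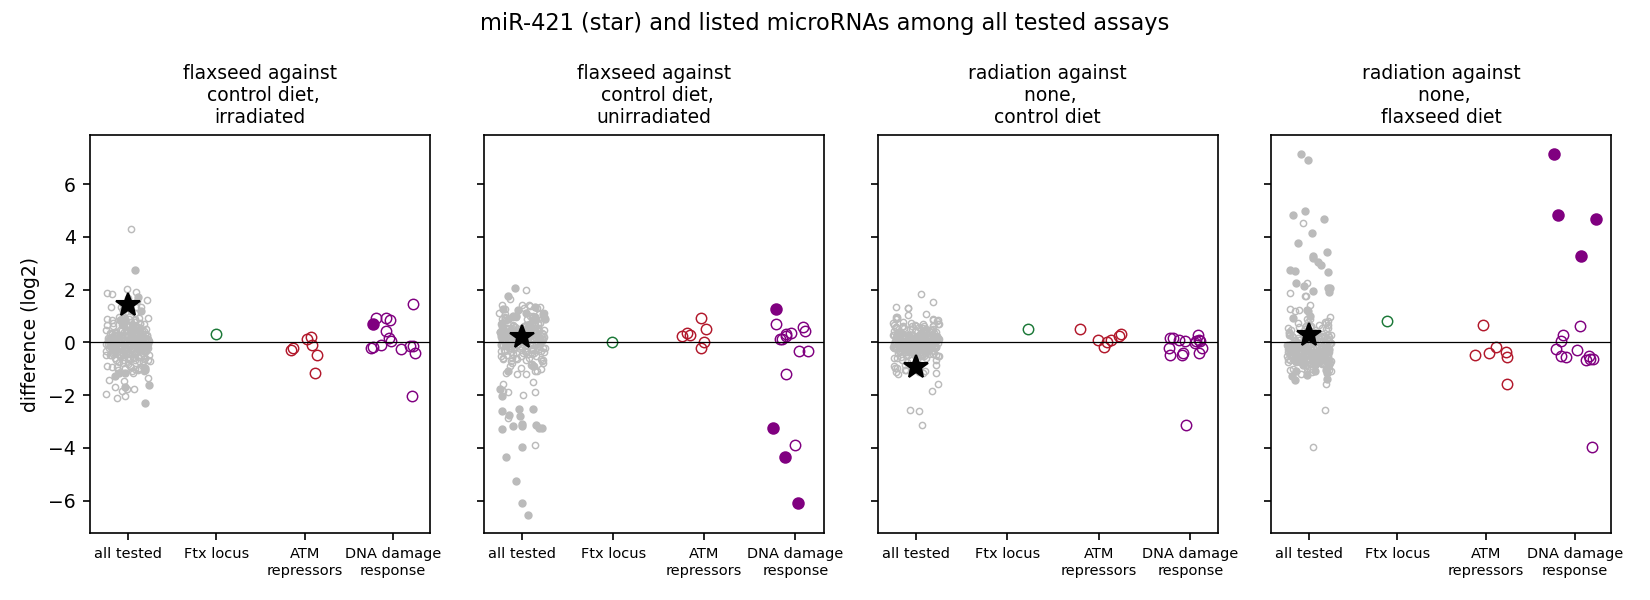
Differences (log2) in 4 comparisons for all 296 tested assays (grey), the Ftx locus, other reported ATM repressors and DNA damage response microRNAs, with filled points for an adjusted p under 0.05 (limma) and miR-421 as a star. No ATM repressor is filled in these 4 panels, and the star stands at 1.43 in the first and at -0.93 in the third.

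The assays whose levels over the 12 mice were most like miR-421 were ranked by Pearson correlation among 259 assays detected in all mice, as a description. The median r was 0.00. The 5 highest were miR-200c by assay 000505B (r = 0.87, Spearman rho = 0.85), miR-30a-3p (0.86, 0.71), miR-339-5p (0.84, 0.85), miR-704 (0.77, 0.76) and miR-1 by assay 002222A (0.77, 0.76). The 3 lowest were miR-503 (r = -0.87, rho = -0.87), miR-185 (-0.80, -0.68) and miR-1198 (-0.79, -0.80). The irradiated control mice stand apart for miR-421, so these values carry the differences between groups. For deviations from the group means, r was between -0.19 and 0.43 for the 5 highest. It was 0.20 for miR-503, against the sign of its r over all mice, -0.60 for miR-185 and -0.14 for miR-1198. Without mice 7 and 8, the 2 farthest from the median, r was between 0.58 and 0.80 for the 5 highest and between -0.90 and -0.63 for the 3 lowest.

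Each of the 5 had its lowest group mean in irradiated control mice and its highest in a flaxseed group. They were picked for likeness to miR-421 in these same mice, so a shared order of groups largely follows from the choice. miR-200c by assay 000505B, a microRNA of epithelial cells, averaged 6.06 ± 0.19 in irradiated flaxseed mice, 5.66 ± 0.36 in unirradiated flaxseed mice, 4.87 ± 0.15 in irradiated control mice and 5.47 ± 0.43 in unirradiated control mice. miR-30a-3p averaged 5.58 ± 0.19, 5.20 ± 0.41, 4.37 ± 0.06 and 5.34 ± 0.37 in the same order of groups. miR-503, which has its gene on the X chromosome as miR-421 does, had the opposite order, with -2.56 ± 0.12 in irradiated flaxseed mice, -1.93 ± 0.26 in unirradiated flaxseed mice, -0.96 ± 0.24 in irradiated control mice and -1.64 ± 0.08 in unirradiated control mice (SD, n = 3 each).

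For 2 of these microRNAs there was a second assay. The other miR-200c assay, 002300A, had r = -0.13 (rho = -0.40) and averaged 4.74 ± 0.06 in irradiated flaxseed mice against 4.98 ± 0.10 in irradiated control mice. The other miR-1 assay, 002064A, had r = 0.46 (rho = 0.59) and averaged -0.23 ± 0.23 in irradiated flaxseed mice against -1.13 ± 0.18 in irradiated control mice, a difference of 0.90 ± 0.55 (limma adjusted p = 0.403). miR-421 itself has a single assay with values, so no second reading of it was at hand.

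The mature RefSeq sequences of 4 of the assays most like miR-421 and of miR-503, the most unlike, are shown with the seed in capitals, to let their seeds be compared. No pair among these and mmu-miR-374b-5p shares a seed.
mmu-miR-200c-3p: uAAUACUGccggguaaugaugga
mmu-miR-30a-3p: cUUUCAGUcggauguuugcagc
mmu-miR-339-5p: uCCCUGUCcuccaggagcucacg
mmu-miR-704: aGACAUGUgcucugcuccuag
mmu-miR-503-5p: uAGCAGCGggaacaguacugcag

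**Figure D4:**
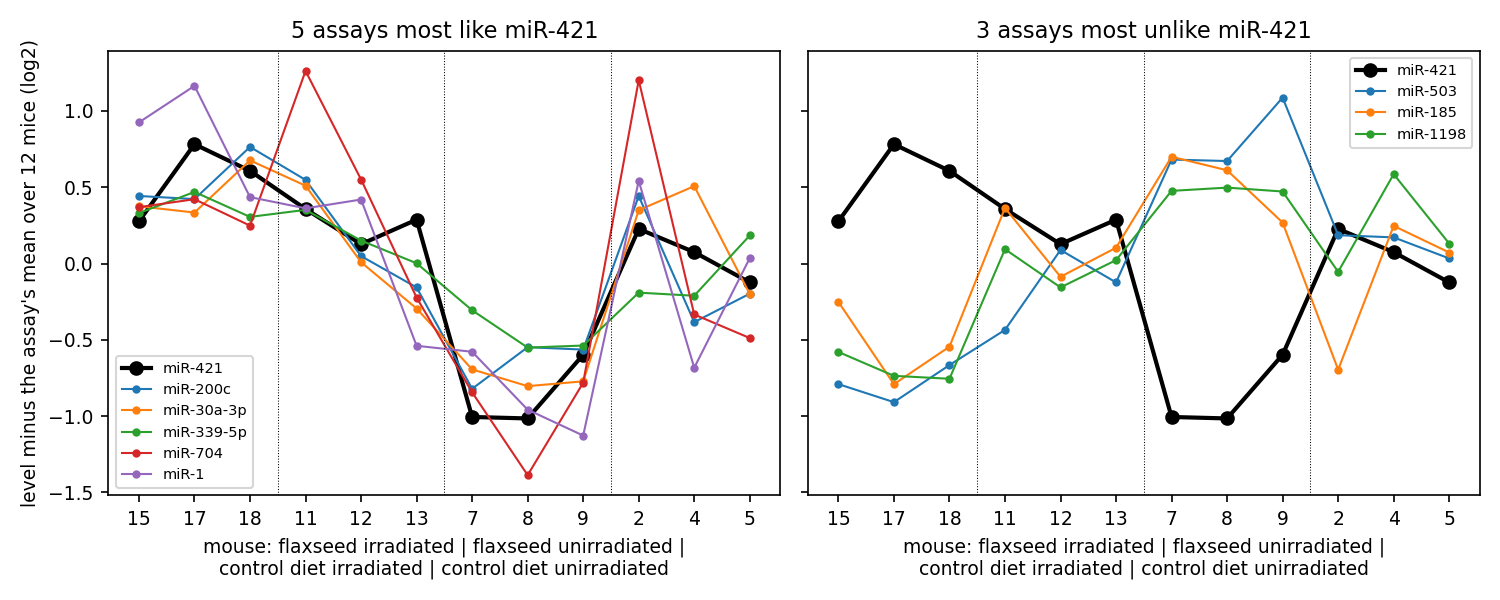
Levels by mouse, each minus the assay's own mean over 12 mice (log2), for miR-421 (black) with the 5 assays most like it (left) and the 3 most unlike it (right), mice ordered by group. The like assays dip together in irradiated control mice 7, 8 and 9, where miR-503, miR-185 and miR-1198 are high. All were picked by their correlation with miR-421 in these mice.

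Epithelial (miR-200c, miR-375) and endothelial (miR-126) markers of lung were detected in all mice, while the assays of liver miR-122 and of heart miR-208 and miR-208b gave 0 values. Some markers of other cells moved beside miR-421 in irradiated mice, where 2.36% of all tested assays were called higher with flaxseed and 2.7% lower. Among lymphoid markers there were 2 assays, of miR-342-3p and miR-150, and their mean level was 1.66 to 1.96 in irradiated flaxseed mice and 3.10 to 3.34 in irradiated control mice, and both fell (miR-342-3p -1.15 and miR-150 -1.70, limma adjusted p = 0.021 and 0.0102). The mean of 3 striated muscle assays was 1.18 to 1.45 in irradiated flaxseed mice and 0.09 to 0.24 in irradiated control mice. Of the 3, 1 was called higher, miR-1 by assay 002222A (1.73, limma adjusted p = 0.0222). The mean of 3 epithelial assays was 4.08 to 4.22 in irradiated flaxseed mice and 3.59 to 3.91 in irradiated control mice, with 1 of 3 called higher. That was miR-200c by assay 000505B (1.19), while its second assay, 002300A, stood at -0.24. Assays 000505B and 002222A were picked above for likeness to miR-421 in these same mice. Their moving beside it therefore largely follows from that choice. The mean of 3 myeloid assays was 4.78 to 4.96 in irradiated flaxseed mice and 4.73 to 4.88 in irradiated control mice, but its members lay far apart and none passed the test. miR-142-3p averaged 3.97 ± 0.18 in irradiated flaxseed mice and 5.65 ± 0.11 in irradiated control mice (limma adjusted p = 0.14). miR-223 by assay 000526B averaged 6.26 ± 0.13 in irradiated flaxseed mice and 4.92 ± 0.09 in irradiated control mice (limma adjusted p = 0.135). The other miR-223 assay, 002295A, lay closer together, at 4.34 ± 0.10 in irradiated flaxseed mice and 3.87 ± 0.09 in irradiated control mice. On the control diet no marker was called for radiation against none, and neither was any other assay (0 of 296, or 0%). The lack of a call is therefore not particular to the markers. The epithelial mean there was 3.59 to 3.91 in irradiated and 3.93 to 4.27 in unirradiated mice, ranges that only just missed each other. Of its 3 assays 2 are of miR-200c, and the differences ran from -0.60 to -0.20 with a median of -0.20. Of single assays detected in all mice, 14 of 260 (5.38%) had all irradiated control mice below all unirradiated control mice. The lymphoid mean was 3.10 to 3.34 in irradiated and 2.72 to 3.50 in unirradiated control-diet mice, and the groups overlapped. The endothelial miR-126 and the erythroid miR-451 were not called in these comparisons. For flaxseed in irradiated mice miR-126 stood at 0.47 and miR-451 at -0.59. For radiation on the control diet they stood at -0.52 and -0.22. The part of all these markers in the miR-421 differences was not tested.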

How the data were processed

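The authors deposited Crt values on a log2 scale that runs downward, and a second table of normalized log2 values with nearly the same distribution in every mouse. Reverse transcription started from 100 ng of RNA with a primer pool A and a primer pool B, and 12 cycles of pre-amplification came before the TaqMan OpenArray reactions, per the labels. The Crt calling method was not given in the sources used here. Assays are only numbered in the Crt table, so names were carried over by ranks within each mouse: 322 of 326 assays with a Crt matched, each best in both directions (mean rank difference at most 0.0005). Reactions at a Crt of 28 or more were taken as undetected and missing. Levels were centred on the mean of 260 assays, and 296 assays detected in at least 2 mice of each group were fitted with limma 3.58.1 in R 4.3.3, with 4 group means over all 12 mice and Benjamini-Hochberg adjustment over 296. The fit was tested on simulated data. Arrays carry no read depth, and the number of mice limits the precision. Fewer assays were detected in unirradiated flaxseed mice (281 to 297) than in the other mice (307 to 312).

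The microRNA and the lists were chosen with earlier results of these data known. The named microRNAs were miR-421, all members of 3 lists (Ftx locus, reported ATM repressors, DNA damage response), cell type markers, and the 5 assays most like and 3 most unlike miR-421. A search for microRNAs that share its seed was not run. Alternatives were other scalings, Crt limits, variance models, thresholds and leaving out each mouse, with scaling to pool B assays of like Crt chosen after seeing the data. For miR-421, leaving out a mouse outside the compared groups or setting undetected reactions to 28 could barely move a difference. A like value under these alternatives was therefore built in.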

Additional observations from a re-analysis of the deposited data

Results flagged for a closer look

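The mean difference of miR-421 with radiation had opposite signs on the 2 diets, which is what drew attention to it. On the flaxseed diet it was 0.30 ± 0.20 (SE), ran from 0.18 to 1.17 over the alternatives, and the groups overlapped. A rise with radiation on that diet is therefore not established. Every irradiated flaxseed mouse was above the mean of unirradiated flaxseed mice, by 0.02 to 0.52, and every irradiated control mouse was below that of unirradiated control mice, by -1.07 to -0.66. The interaction was 1.23 ± 0.28 (SE), and the difference was not tested for miR-421. Mouse 15 lay 0.02 above the unirradiated flaxseed mean and below unirradiated flaxseed mice 11 and 13.

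miR-29c drew attention because its interaction of diet with radiation was called, at 7.55 (limma adjusted p = 0.0394). Of all tested assays, 8.45% were called for the interaction. The miR-29c call was lost in 9 of 27 alternatives, with limma adjusted p from 0.0064 to 0.1007. Its SD among unirradiated flaxseed mice was 3.44, with mouse 11 at -5.55.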

How the results depend on the processing

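For flaxseed in irradiated mice, the miR-421 difference moved from its main value of 1.43 by less than the replicate SD of 0.20 under all 24 alternatives. Some of these could barely move it. For flaxseed in unirradiated mice the value was -0.18 with quantile normalization, -0.17 when the control RNAs were the scale, 0.44 with the median assay, -0.10 within each primer pool, -0.41 with no normalization, -0.0362 with the authors' normalized values and -0.14 when scaled to pool B assays of like Crt. The same pool B scaling gave -1.20 for radiation on the control diet. Radiation on the flaxseed diet was at 0.79 with quantile normalization, 1.17 with no normalization, 0.74 with the authors' values and 0.55 with pool B assays of like Crt. The interaction was at 1.74 with quantile normalization, 1.52 with the control RNAs, 0.97 with the median assay, 1.56 within each pool, 1.90 with no normalization, 1.58 with the authors' values and 1.76 with pool B assays of like Crt. Pooled over radiation, flaxseed was at 0.59 with the control RNAs and 0.53 with no normalization. Pooled over diets, radiation was at -0.0832 with quantile normalization, 0.22 with no normalization and -0.0496 with the authors' values. The cause of these shifts was not tested. The median of all assays moved with the scaling too, from 0.22 to -0.37 with no normalization for flaxseed in unirradiated mice.

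Leaving out each mouse gave 1.31 to 1.57, 0.11 to 0.28, -1.06 to -0.85 and 0.18 to 0.44 for miR-421 in the 4 comparisons of diet in irradiated and unirradiated mice and of radiation on control and flaxseed diet, 1.12 to 1.37 for the interaction, 0.76 to 0.88 for pooled flaxseed and -0.38 to -0.25 for pooled radiation. The listed count for flaxseed in irradiated mice was 0 with no normalization, with quantile normalization, with the authors' values, and scaled to the control RNAs, the median assay or each primer pool. In a fit of the compared groups alone it was 1 for flaxseed in unirradiated mice and 0 for radiation on the flaxseed diet. For the interaction it was 0 with the control RNAs and with undetected reactions set to 28, 2 within each pool and with pool B assays of like Crt, 3 with a Crt limit of 26 and with array weights, and 4 with no normalization and at an adjusted p under 0.10. Without each mouse the listed counts ran from 0 to 1 for flaxseed in irradiated mice, 2 to 6 in unirradiated mice, 0 to 0 for radiation on the control diet, 1 to 5 on the flaxseed diet and 0 to 4 for the interaction. The share called over all assays under each of these settings is not given here. The changes in count are therefore not read as a result about the listed microRNAs. No paired analysis was possible because the groups share no mouse number.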
